A study of Homo sapiens with 18 samples.

Results

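The regions described here are distal sites of histone H3 lysine 27 acetylation (H3K27ac) that were found in every condition of a chromatin immunoprecipitation and sequencing (ChIP-seq) study of human lung adenocarcinoma cells. A region was built from the H3K27ac peak summits of the first LCC library. A summit was taken when a summit of the second LCC library, of TGFb, of SO1 and of H2030 each lay within 1 kb, and when no summit of the promoter mark H3K4me3 lay within 2.5 kb in any condition. Of the 50628 H3K27ac summits of LCC replicate 1 on chromosomes 1 to 22 and X, 3858 (7.62%) met the rule, and summits within 1 kb of each other were merged into 3332 regions. The regions were thus chosen by H3K27ac presence and H3K4me3 absence, which are no finding about them, whereas H3K4me1 took no part in the choice. The scores of H3K4me1 and H3K27ac were correlated at these regions, however, so H3K4me1 is not independent of a choice made by H3K27ac.

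The 4 conditions were H2087-LCC cells given 100 nM TGF-β1 over 4 days as the labels state the dose (here TGFb), the cells labelled H2087-LCC-SO1 (here SO1), the separate line H2030, and untreated H2087-LCC (here LCC). TGFb, SO1 and LCC share the H2087 background, and the labels describe 1 growth medium with hydrocortisone, insulin, transferrin, selenite and epidermal growth factor for H2087-LCC and SO1, but a plainer medium for H2030, so line and medium cannot be told apart in H2030. H3K27ac, H3K4me1 and H3K4me3 were each profiled in 1 library per condition, except that LCC H3K27ac has 2 biological replicates. Experimental error can be read from the 2 LCC replicates of H3K27ac alone, and because every library set against LCC is single, no p-value is given below.

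H3K27ac is written by CBP-family acetyltransferases and marks promoters and enhancers that are in use. H3K4me1, written by KMT2C and KMT2D, marks enhancers whether or not they are acetylated, and H3K4me3 marks promoters. A distal site with both H3K27ac and H3K4me1 is the usual chromatin signature of an active enhancer. Most enhancers are used in few cell types, so distal acetylation that is present in several lines is the less common case.

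The deposited lists held 50663 to 68118 H3K27ac summits, 128146 to 143843 H3K4me1 summits and 25691 to 28889 H3K4me3 summits. Each summit is a single base with a score, a p or q value given as its −log10, which ranks peaks within its own list and rises with a library's depth. Scores of different libraries that are printed side by side below are therefore not on the same scale. Read depth and peak width are unknown, and a missing summit can be a missed peak. Positions are given in the hg19 build; no gene is named and no sequence is printed, because the genome and annotation of that build were not used here.

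Each further condition removed part of the LCC summits, and H2030 removed most. LCC replicate 2 had a summit within 1 kb of 84.2% of the replicate 1 summits. Asking for TGFb as well left 73.7%, asking for SO1 left 63.7%, and asking for H2030 left 38.8%. Most summits present in all 5 lists lay near promoters, 15810 within 2.5 kb of an H3K4me3 summit, against the 3858 that were kept. The regions cover a minor part of the distal H3K27ac of each library. Of the summits without H3K4me3 within 2.5 kb, 9.33% in TGFb (Wilson 95% interval 9.04 to 9.63), 12.7% in SO1 (12.3 to 13.05) and 13.8% in H2030 (13.4 to 14.2) lay within 1 kb of a common region, as did 18.1% in LCC replicate 1 and 12.01% in LCC replicate 2. These intervals and all that follow cover counting error only.

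Most regions were built from 1 summit, so their length reflects the merging of summits and not the width of peaks. Of the 3332, 2812 rested on 1 LCC replicate 1 summit, 515 on 2, 4 on 3 and 1 on 4, and the longest spanned 2366 bp between its outer summits. At the 2812 single-summit regions, the summit was displaced from LCC replicate 1 by a median of 89.0 bp in TGFb, 91.0 bp in SO1 and 159 bp in H2030, beside 96.0 bp in LCC replicate 2. TGFb and SO1 summits were thus placed about as closely as those of the replicate, and H2030 summits lay farther off. Within 100 bp lay 53.6% of the TGFb, 52.8% of the SO1 and 37.2% of the H2030 summits, beside 51.4% of those of LCC replicate 2. All 4 other summits lay within 100 bp at 412 regions (14.7%).

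At the edge of the rule, 238 summits had their farthest counterpart 901 to 1000 bp away, with a median LCC replicate 1 score of 14.2 (1.67 to 317), and 181 just outside had it at 1001 to 1100 bp, with a median of 9.67 (1.87 to 270). For H3K4me3, 76 summits lay 2501 to 3000 bp from the nearest summit, with a median score of 13.02 (2.58 to 135), and 71 just outside lay at 2001 to 2500 bp, with a median of 9.36 (2.27 to 166). The score ranges on both sides of each limit overlapped widely, but the median was higher for the summits that met the rule at both limits.

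The acetylation of the common regions was of middling strength within each list. Their median H3K27ac score was 70.3 in TGFb, 68.2 in SO1 and 21.9 in H2030, and 12.8 and 24.9 in LCC replicates 1 and 2, each on the scale of its own list. These medians stood at percentile 70.2 of the TGFb list, 65.6 of SO1, 56.0 of H2030, and 50.7 and 63.0 of the LCC replicates. The 14023 regions present in all 5 lists with H3K4me3 within 2.5 kb stood higher, at 85.0 in TGFb, 79.1 in SO1, 83.0 in H2030, and 77.5 and 83.9 in LCC. Distal regions of the 3 H2087 conditions without an H2030 summit within 1 kb (5721) stood lower than the common regions. Their medians were at percentile 60.6 in TGFb, 53.4 in SO1, and 46.1 and 59.9 in LCC. Above the median of all 5 lists stood 895 of the common regions (26.9%), and 102 (3.06%) stood below it in all 5. The top 10% of every list held 13 of them (0.390%).

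**Figure D1:**
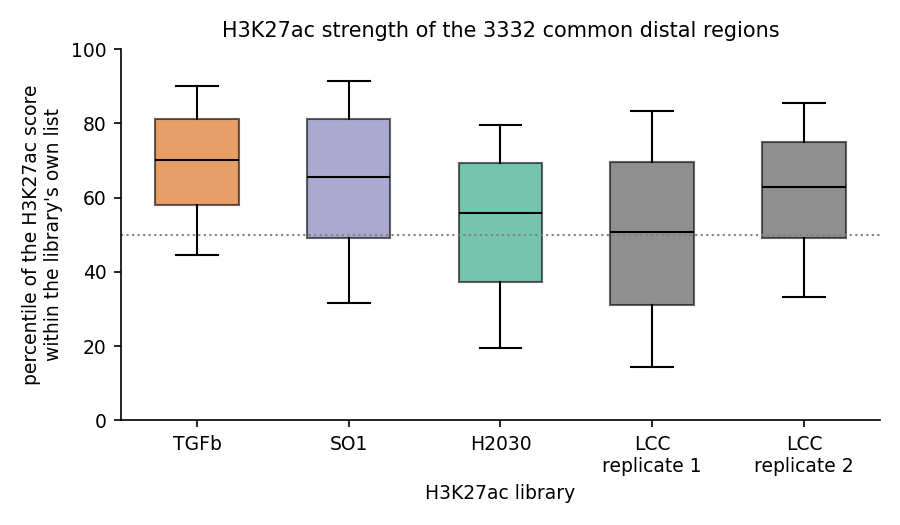
Percentile of the H3K27ac score within each library's own list (vertical axis, 0 to 100) for the 3332 common distal regions in the 5 H3K27ac libraries. Lines in the boxes are medians (70.2, 65.6, 56.0, 50.7 and 63.0 from left to right), boxes span the quartiles and whiskers the 10th to 90th percentile of the regions; the dotted line is the list median. The lists differ in length, so the boxes describe each list and not a change between them.

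The strongest regions were ranked by their lowest percentile over the 5 lists. The first was chr11:65186984, with H3K27ac scores of 532 in TGFb, 561 in SO1, 520 in H2030, and 437 and 554 in the LCC replicates. It was in the top 0.1% of every list, and its nearest H3K4me3 summit lay 3602 bp away. LCC had an H3K4me1 summit at its edge, 990 bp away with a score of 66.4, whereas the nearest summits of the other conditions lay 1128 bp (TGFb), 1151 bp (SO1) and 1169 bp (H2030) away, just outside the 1 kb window. The next, chr12:12877963, scored 535 in TGFb, 504 in SO1, 437 in H2030, and 272 and 400 in LCC. It carried weak H3K4me1 in TGFb (11.8) and SO1 (13.7) and none within 1 kb in H2030 or LCC. The third, chr12:6446253, scored 480 in TGFb, 495 in SO1, 509 in H2030, and 255 and 382 in LCC, with H3K4me3 3025 bp away. These 3 regions had strong acetylation in each library and incomplete H3K4me1.

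Further down, both marks were found together. At chr17:48738975, with H3K4me3 22654 bp away, H3K27ac scored 411 in TGFb, 362 in SO1, 451 in H2030, and 104 and 266 in LCC. H3K4me1 at that region scored 95.7 in TGFb, 143 in SO1, 107 in H2030 and 97.8 in LCC. At chr6:136931008, 37909 bp from H3K4me3, H3K4me1 scored 64.3 in TGFb, 89.99 in SO1, 77.1 in H2030 and 70.9 in LCC, and H3K27ac scored 288, 359 and 245 in those first 3 and 116 and 202 in LCC. Both regions carried both marks in every condition. The other 5 of the first 10 were chr11:66738844, chr7:130794588, chr17:40831723, chr17:2863967 and chr2:62805789, and of these chr11:66738844 and chr17:2863967 lacked H3K4me1 within 1 kb in H2030 and chr2:62805789 lacked it in LCC. Of the 13 regions in the top 10% of every list, 8 had H3K4me3 within 10 kb, and 7 carried H3K4me1 in all 4 conditions. Over all 3332 regions, 12.1% lay 2.5 to 5 kb and 22.4% lay 5 to 10 kb from H3K4me3. The 13 are too few to compare with these shares. A wider set of strong regions was close to the whole in both respects. The 334 with the highest lowest percentile had a median distance of 17076 bp, against 16428 bp over all 3332, and 73.1% of them (68.1 to 77.5) had H3K4me1 in all 4 conditions, against 76.1%.

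H3K4me1 accompanied the common regions in every condition, H2030 included. An H3K4me1 summit lay within 1 kb of 91.5% of the regions in TGFb (90.5 to 92.4), 92.2% in SO1 (91.3 to 93.1), 88.2% in H2030 (87.1 to 89.3) and 91.5% in LCC (90.5 to 92.4). All 4 conditions had it at 2535 regions, or 76.1% (74.6 to 77.5), 3 conditions at 511, 2 at 178, 1 at 82 and none at 26. Where exactly 3 conditions had it, H2030 was the one without at 227 of the 511, TGFb at 103, SO1 at 81 and LCC at 100. The 14023 regions present in every H3K27ac list with H3K4me3 within 2.5 kb had H3K4me1 less often, but still at most regions. Their shares were 77.3% in TGFb, 79.1% in SO1, 74.8% in H2030 and 78.1% in LCC, and 58.9% (58.1 to 59.7) in all 4. Frequent H3K4me1 in H2030 was thus not particular to the common distal regions.

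The 5721 distal regions that were acetylated in the 3 H2087 conditions and lacked an H2030 H3K27ac summit within 1 kb give the nearest comparison. Their H3K4me1 shares were 91.7% in TGFb, 92.0% in SO1 and 91.2% in LCC, each within the interval of the common regions, but 34.9% (33.7 to 36.2) in H2030, where the common regions had 88.2%. All 4 conditions had H3K4me1 at 29.3% of them (28.1 to 30.5). Over all 11232 LCC distal regions of both replicates that lacked H3K27ac in at least 1 other condition, which include those 5721, the share with H3K4me1 in all 4 was 23.7% (22.9 to 24.5), against the 76.1% of the common regions. Both comparison sets were defined by missing H3K27ac. At the common regions, H3K4me1 and H3K27ac scores within H2030 had a Spearman's rho of 0.597. The lower shares in H2030 and in all 4 therefore cannot be told apart from that choice. With summits of score 10 or above alone, the shares were 68.4% and 15.3%, and with an H3K4me1 window of 500 bp 38.0% and 11.9%.

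**Figure D2:**
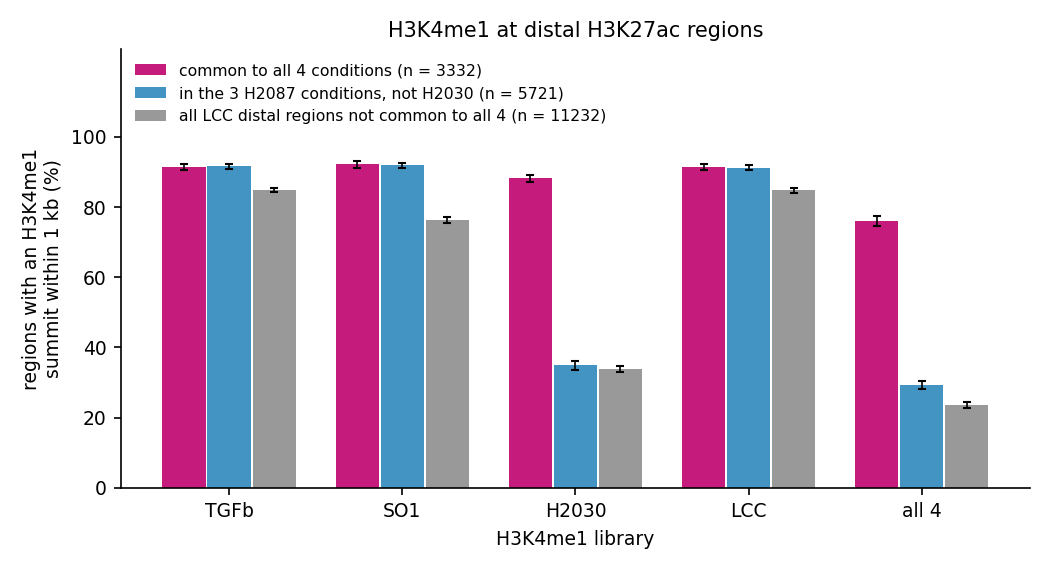
Share of distal H3K27ac regions with an H3K4me1 summit within 1 kb (vertical axis, percent) in each H3K4me1 library and in all 4, for the common regions, the regions of the 3 H2087 conditions without H2030, and all LCC distal regions not common to all 4, which include the second set. Bars are shares and error bars Wilson 95% intervals; in H2030 the common regions stood at 88.2%, against 34.9% and 33.9% in the other sets.

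The difference was of like size at every strength of LCC acetylation. The 14564 LCC distal regions were divided into 5 classes of equal size by their mean H3K27ac rank in the 2 LCC replicates, and from the weakest to the strongest class 13.8%, 18.1%, 20.6%, 27.5% and 34.5% of the regions were common to all conditions. Within these classes, H3K4me1 in all 4 conditions was found at 75.1%, 76.0%, 80.5%, 77.8% and 72.5% of the common regions, and at 32.5%, 29.9%, 30.5%, 29.0% and 26.5% of those without H2030. The common regions were higher in each class. The classes rest on LCC acetylation, so they leave the split by H2030 acetylation in place.

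The level of H3K4me1 was high as well. Where present, its median score stood at percentile 89.4 of the TGFb list, 90.1 of SO1, 84.6 of H2030 and 89.5 of LCC. At regions without H2030 acetylation the medians were 86.5, 85.6 and 88.5 in TGFb, SO1 and LCC, and 47.9 in H2030, so the H3K4me1 that H2030 had there was near the middle of its list. The LCC H3K4me1 score also went with being common. Of the LCC distal regions without an LCC H3K4me1 summit within 1 kb, 14.1% (12.7 to 15.7) were common to all conditions. In 5 classes of rising LCC H3K4me1 score, the shares were 17.3%, 21.3%, 24.4%, 26.2% and 32.1% (30.3 to 34.0), beside 22.9% over all LCC distal regions. This rise was not separated from the rise with LCC acetylation. At the common regions with LCC H3K4me1, its score and that of H3K27ac had a Spearman's rho of 0.549 and 0.557 in the LCC replicates.

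H3K4me1 summits were centred on the acetylated site. At single-summit regions, the 200 bp around the LCC H3K27ac summit held on average 15.0 TGFb, 16.3 SO1, 11.3 H2030 and 17.4 LCC H3K4me1 summits per 100 regions and 100-bp bin. Between 2000 and 2500 bp away the values were 1.16, 0.861, 1.34 and 1.08. The H2030 peak was lower and wider, with 4.28 per 100 regions between 200 and 600 bp, where TGFb had 3.41, SO1 3.005 and LCC 2.97. All profiles are centred on the LCC H3K27ac summit. H2030 H3K27ac summits lay a median of 159 bp from it, beside 89.0 to 96.0 bp in the other libraries. How far this offset bears on the H2030 shape was not tested. At regions without H2030 acetylation the central value was 14.8 in TGFb, 16.5 in SO1 and 17.3 in LCC, but 3.37 in H2030. H3K4me1 summits on both sides within 2.5 kb were seen at 20.0% of the common regions in TGFb, 12.9% in SO1, 18.3% in H2030 and 14.8% in LCC.

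**Figure D3:**
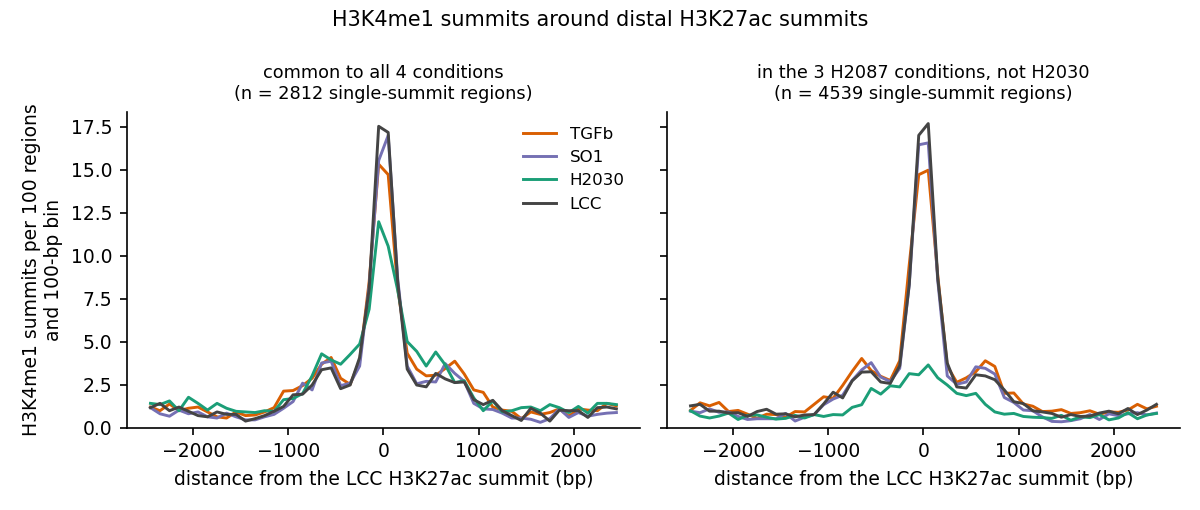
H3K4me1 summits per 100 regions and 100-bp bin (vertical axis) by distance in bp from the LCC replicate 1 H3K27ac summit (horizontal axis), for 2812 single-summit common regions (left) and 4539 single-summit regions of the 3 H2087 conditions without H2030 (right), with 1 line per H3K4me1 library. All 4 lines peak at the centre on the left, whereas on the right the H2030 line has a centre of 3.37, against 14.8 to 17.3 in the other libraries.

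The distance to H3K4me3 bore on the H3K4me1 of the common regions. Their median distance to the nearest H3K4me3 summit of any condition was 16428 bp, with quartiles of 7600 and 34304 bp, against a median of 19088 bp at regions without H2030 acetylation. Between 2.5 and 5 kb from H3K4me3 lay 404 common regions, of which 62.1% (57.3 to 66.7) carried H3K4me1 in all 4 conditions. The share was 72.2% at 5 to 10 kb (748 regions), 78.4% at 10 to 25 kb (1026), 81.4% at 25 to 100 kb (971) and 82.0% (75.8 to 86.9) beyond 100 kb (183). Regions without H2030 acetylation had between 22.4% and 32.0% in these classes, a share limited by H2030. In the 3 H2087 libraries their H3K4me1 was likewise less frequent near H3K4me3: in the nearest class it was found at 85.5% in TGFb, 84.0% in SO1 and 82.3% in LCC, and in the farthest at 93.5%, 94.9% and 93.2%. The common regions had 83.9%, 86.4% and 82.9% in the nearest class and 92.9%, 93.99% and 93.99% in the farthest. In H2030 the common regions had 79.2% in the nearest class and 92.9% in the farthest, so the 2 sets ran in opposite directions there. From the nearest to the farthest class, the median H3K27ac score of the common regions was 60.2, 67.0, 74.7, 72.0 and 72.2 in TGFb, 62.5, 65.9, 70.1, 69.0 and 78.7 in SO1, and 22.3, 20.7, 22.2, 20.7 and 25.6 in H2030. It was 12.7, 12.1, 14.2, 12.6 and 12.9 in LCC replicate 1 and 23.6, 24.3, 25.3, 25.4 and 25.9 in LCC replicate 2. The nearest class had the lowest median in TGFb, SO1 and LCC replicate 2, but not in H2030 or LCC replicate 1. Whether the nearest H3K4me3 element was itself common hardly differed: it carried H3K4me3 in all 4 conditions at 37.6% (36.0 to 39.3) of the common regions, 36.3% (35.0 to 37.5) of those without H2030 and 35.7% (34.9 to 36.6) of all LCC distal regions that were not common.

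**Figure D4:**
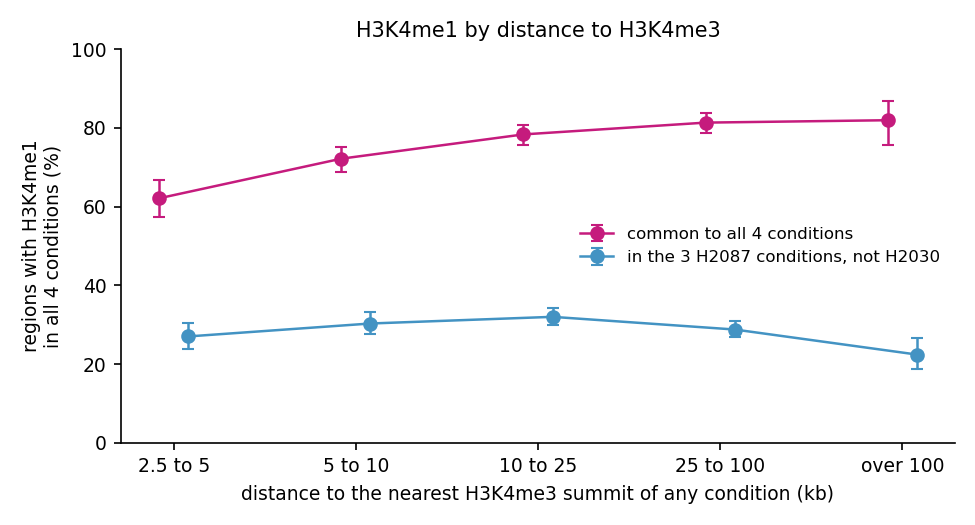
Share of regions with H3K4me1 in all 4 conditions (vertical axis, percent, Wilson 95% intervals) by distance to the nearest H3K4me3 summit of any condition (horizontal axis, kb). The common regions stood between 62.1% (nearest class) and 82.0% (farthest class), and the regions of the 3 H2087 conditions without H2030 between 22.4% (farthest class) and 32.0% (10 to 25 kb).

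Complete loss or gain of H3K4me1 at the common regions was rare. A region was held to have lost H3K4me1 when LCC had a summit within 1 kb and the other condition none within 10 kb, and to have gained it in the reverse case. Losses numbered 2 in TGFb (0.0600%, against 0.494% of all LCC distal regions), 7 in SO1 (0.210%, against 4.02%) and 27 in H2030 (0.810%, against 23.1%). Gains numbered 4 in TGFb (0.120%, against 0.0481%), 4 in SO1 (0.120%, against 0.0549%) and 5 in H2030 (0.150%, against 0.0549%). The loss shares of the common regions were below that background in each comparison, and the gains are too few to compare. In TGFb and SO1, losses were as rare at the regions without H2030 acetylation, with 0.0699% and 0.105%, whereas in H2030 those regions had 31.9%. With summits of score 10 or above alone, the losses were 0.307% in TGFb and 2.86% in H2030. The share over all LCC distal regions was not computed at that score, so these losses cannot be set against a background.

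The losses with the highest LCC H3K4me1 percentile varied in their acetylation. At chr17:43370739-43371420 H3K4me1 scored 93.4 in TGFb, 135 in SO1 and 102 in LCC, and the nearest H2030 summit lay 10512 bp away, while H3K27ac there still scored 113 in H2030. At chr2:95999534-96000248 H3K4me1 scored 64.7 in TGFb, 143 in SO1 and 84.6 in LCC, with none in H2030 within 10965 bp and an H2030 H3K27ac score of 3.04. At chr2:28578834 H2030 H3K27ac scored 3.93, and H3K4me1 scored 72.6 in TGFb, 84.5 in SO1 and 76.3 in LCC. The first of the 3 thus kept strong H2030 acetylation and the other 2 kept a weak summit.

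The 3 SO1 losses with the highest LCC H3K4me1 percentile, of the 7, were chr19:39166611-39167599, chr20:39619555 and chr8:13210499-13211182. At the last, the nearest SO1 H3K4me1 summit lay 596884 bp away and the SO1 H3K27ac score was 4.38, beside 92.1 in TGFb, 118 in H2030, and 6.18 and 14.4 in LCC. H3K4me1 scored 11.8 in TGFb and 21.8 in LCC at that region. The 2 TGFb losses, chr15:54875979 and chr2:89127779, had LCC H3K4me1 scores of 8.26 and 4.33 and none in SO1 or H2030 either.

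Several gains recurred between conditions, which share the single LCC H3K4me1 library. At chr11:92788617 H3K4me1 scored 12.99 in TGFb, 50.7 in SO1 and 37.7 in H2030, and the nearest LCC summit lay 35174 bp away. H3K27ac there scored 14.8 in TGFb, 116 in SO1 and 94.4 in H2030, against 4.64 and 7.26 in LCC. At chr16:55786668-55787343 H3K4me1 scored 6.45 in TGFb, 33.8 in SO1 and 28.2 in H2030, with the nearest LCC summit 84107 bp away. H3K27ac scored 206 in TGFb, 84.4 in SO1 and 142 in H2030, and 11.9 and 81.7 in LCC. Within their own lists these stood at percentiles 88.1, 70.0 and 81.6, and at 48.7 and 83.6 in LCC. LCC replicate 2 thus stood above SO1 and H2030 by percentile. At chr10:35003338 SO1 had an H3K4me1 score of 138 and H2030 of 63.7, with none within 1 kb in TGFb or LCC. At chr1:68190271 TGFb had 67.7 and H2030 36.1, with none within 1 kb in SO1 or LCC.

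At 26 regions (0.780%, 0.533 to 1.14) no condition had H3K4me1 within 1 kb, against 3.83% of the LCC distal regions that were not common. Regions without H2030 acetylation were close to the common ones, with 1.17% (0.923 to 1.48), and the 2 intervals overlap. In 17 of the 26 an H3K4me1 summit lay within 2.5 kb. One of the 3332 had none within 10 kb in any condition, chr15:67369169, where H3K27ac scored 175 in TGFb, 116 in SO1, 94.4 in H2030, and 78.4 and 179 in LCC. Its nearest H3K4me1 summits lay 11785 to 11928 bp away and its nearest H3K4me3 summit 10077 bp away. This region was well acetylated in all 5 libraries without either methylation mark nearby. The next strongest of the 26, a choice made after their values were seen, was chr16:90061940, with H3K27ac scores of 172 in TGFb, 106 in SO1, 446 in H2030, and 37.6 and 161 in LCC, and its nearest H3K4me1 summit was 4659 bp away in LCC.

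Although acetylated in every condition, the common regions differed in how strongly. Regions were ranked by H3K27ac score among the 3332 in each library, so that the lists compared are of equal length. Spearman's rho over the 3332 regions was 0.735 between the 2 LCC replicates. It was 0.513 and 0.582 between TGFb and LCC replicates 1 and 2, 0.507 and 0.477 between SO1 and LCC, and 0.178 and 0.196 between H2030 and LCC. At the regions near H3K4me3 the values were 0.882 between replicates, 0.824 and 0.858 for TGFb, 0.795 and 0.736 for SO1, and 0.530 and 0.556 for H2030. H3K4me1, at the 2535 regions that carried it throughout, gave 0.665 between TGFb and LCC, 0.566 between SO1 and LCC and 0.195 between H2030 and LCC. The order of strength among the common regions was thus closer to that of LCC in TGFb and SO1 than in H2030, in both marks. These are descriptions across regions, which share a library's depth and are not independent replicates.

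A region was called higher or lower when its rank in a condition lay outside both LCC ranks by more than 43.5 points on a scale of 0 to 100, the 95th percentile of the difference between the replicates. TGFb was higher at 102 regions (3.06%, against 2.42% of all 17355 regions present in the 5 lists) and lower at 96 (2.88%, against 1.6%). SO1 was higher at 111 (3.33%, against 4.68%) and lower at 129 (3.87%, against 2.37%). H2030 was higher at 250 (7.503%, against 8.51%) and lower at 308 (9.24%, against 9.25%). In the background, regions near H3K4me3 were ranked among themselves, with a narrower replicate limit of 28.8 points. The common regions were above it in both directions in TGFb and for lower calls in SO1, below it for higher calls in SO1 and H2030, and level with it for lower calls in H2030. No condition called 2521 of the 3332 regions.

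The same limit of 43.5 points was also set against 1 replicate alone. Against replicate 1 it was exceeded at 459 regions (13.8%) in TGFb, 457 (13.7%) in SO1 and 869 (26.1%) in H2030. Against replicate 2 the numbers were 364 (10.9%), 508 (15.2%) and 825 (24.8%). The replicates exceeded it against each other at 167 (5.01%), a share fixed by the definition of the limit. All 3 conditions exceeded that share against either replicate. These counts were made for the common regions alone, so they show nothing particular to them. The calls depended on which regions were ranked together. When the common regions and those near H3K4me3 were ranked in 1 list, which also lowered the limit to 28.5 points, 238 common regions were higher and 108 lower in TGFb, 511 and 89 in SO1, and 208 and 399 in H2030. The comparison with regions near H3K4me3 turned for some calls. SO1 was then higher at 15.3% of the common regions, against 4.02% of those near H3K4me3, and lower at 2.67%, against 2.58%, while H2030 was lower at 11.97%, against 8.69%. No excess or lack of these calls among the common regions can therefore be stated for SO1 or H2030. In TGFb the common regions stayed above, with 7.14% against 2.08% higher and 3.24% against 1.33% lower. The replicates themselves differed more at the common regions, with a 95th percentile of 43.5 points against 28.8. No excess is therefore stated for TGFb either. Ranked in 1 list, the common regions stood at a median rank of 23.6 in TGFb, 30.5 in SO1 and 18.7 in H2030, against 23.3 and 20.6 in the LCC replicates.

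H3K4me1 moved with these differences in acetylation. It was ranked among the common regions that carried it in both LCC and the condition, and the LCC rank was subtracted. In TGFb the median difference was 25.8 points at 91 regions with higher acetylation and -19.8 at 77 with lower, against -0.261 at the other 2707. In SO1 it was 35.9 at 101 and -38.2 at 99, against -0.0606 at 2690. In H2030 it was 40.4 at 213 and -45.4 at 242, against 0.837 at 2294. H3K4me1 was ranked above LCC at 84.6%, 93.1% and 87.3% of the regions with higher acetylation in TGFb, SO1 and H2030, and at 15.6%, 6.06% and 7.85% of those with lower acetylation. The 2 marks come from separate libraries. Presence of an H3K4me1 summit did not follow this pattern: the condition had one at 91.2% of the higher and 91.7% of the lower regions in TGFb, 92.8% and 93.8% in SO1, and 89.6% and 88.3% in H2030. LCC had one at 97.1% of the regions higher in TGFb and 83.3% of those lower, at 98.2% and 81.4% for SO1, and at 94.4% and 88.0% for H2030. LCC thus lacked a summit more often at the regions where its acetylation ranked above that of the condition, and such regions are left out of the rank differences.

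**Figure D5:**
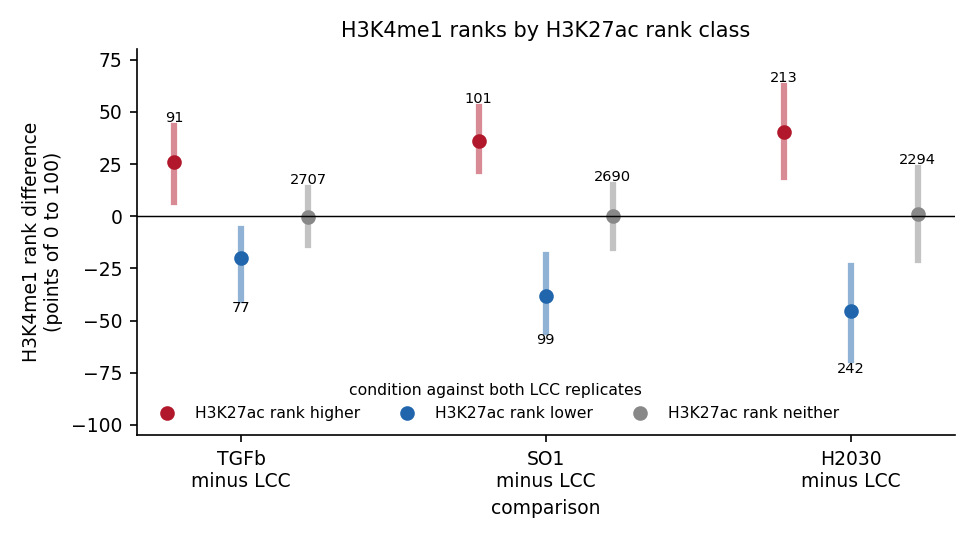
Difference in H3K4me1 rank, condition minus LCC, in points of a 0 to 100 scale (vertical axis) for common regions whose H3K27ac rank was higher, lower or neither relative to both LCC replicates (colours), in TGFb, SO1 and H2030. Points are medians, bars the quartiles over regions, and the numbers are the regions with H3K4me1 in both libraries; the higher class lies above 0 and the lower class below 0 in each comparison.

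The clearest shifts were named by the margin to the nearer LCC rank, a rule added after the data were seen. In TGFb, chr5:81716635 had the widest upward margin, with an H3K27ac score of 237 in TGFb, against 3.96 and 3.45 in LCC. It scored 20.7 in SO1 and 4.81 in H2030, and its H3K4me1 score was 72.5 in TGFb and 38.1 in LCC. At chr16:86710237 TGFb scored 295, against 4.22 and 8.36 in LCC. At chr20:32498357 TGFb scored 6.71, against 53.4 and 87.9 in LCC, while SO1 had 138; H3K4me1 was 34.8 in TGFb and 89.4 in LCC. These regions passed the rule through a weak summit on one side.

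In SO1, chr10:32034840 scored 331, against 2.70 and 5.68 in LCC, and TGFb was also high there with 182. Its H3K4me1 scores were 119 in SO1, 44.2 in TGFb and 14.4 in LCC. On chromosome 3 a pair of regions, chr3:162013056 and chr3:162109072, scored 274 and 248 in SO1, while LCC had 4.28 and 7.62 at the first and 4.34 and 3.47 at the second. The first was also high in TGFb (190) and in H2030 (176), and the second scored 77.2 in TGFb and 18.7 in H2030. The widest downward margin in SO1 was at chr12:53194444, with 3.95 in SO1, against 111 and 194 in LCC, and 79.8 in TGFb. H3K4me1 there scored 18.7 in SO1 and 101 in TGFb, and LCC had no H3K4me1 summit within 1 kb. At chr8:142238440 H3K27ac was low in SO1 (5.82), TGFb (8.45) and H2030 (8.91), against 43.5 and 86.4 in LCC.

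In H2030, chr20:46021257 scored 318, against 4.41 and 3.27 in LCC, with H3K4me1 of 52.9 in H2030 and 12.8 in LCC. The lowest relative to LCC was chr3:156333156, with 2.18 in H2030, against 124 and 214 in LCC, 245 in TGFb and 377 in SO1. H3K4me1 there scored 19.2 in H2030 and 82.6 in LCC, and no stronger H2030 H3K27ac summit lay within 5 kb. At chr5:1546804 H2030 scored 3.33, against 162 and 285 in LCC, but a summit of 32.6 lay within 5 kb. Over the lower regions whose score was below the median of the common regions in their library, a summit at or above that median lay beyond 1 kb and within 5 kb at 8 of 95 in TGFb, 9 of 128 in SO1 and 33 of 302 in H2030. These shares were 8.42%, 7.03% and 10.9%. Among all common regions below that median, which include the lower regions, they were 10.8%, 10.4% and 12.99%. Whether a summit beyond 1 kb accounts for the low scores was not tested.

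Most common regions had no other close by. Another common region lay within 12500 bp of 576 regions, or 17.3% (16.0 to 18.6), against 21.95% (20.9 to 23.05) of the regions without H2030. The sets differ in number, and a larger set places its members closer. Any LCC distal region lay within 12500 bp of 39.5% of the common regions and 39.6% of those without H2030. Joined at that distance, 2756 common regions stood alone, 227 groups held 2, 32 held 3, 4 held 4 and 2 held 5. H3K4me1 in all 4 conditions was less frequent in groups, at 68.6% (64.7 to 72.2) of the 576, than at the lone regions, 77.6% (76.1 to 79.2).

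The groups of 5 were chr3:127494689-127522318 and chr10:79338441-79365326. The first, 27629 bp long, held 5 H3K27ac summits in TGFb, 4 in SO1 and 9 in H2030, against 7 and 5 in the LCC replicates, and H3K4me1 was found at 4 of its regions in TGFb, 5 in SO1, 4 in H2030 and 4 in LCC. The second held 9 H3K27ac summits in TGFb, 7 in SO1 and 7 in H2030, against 6 and 7 in LCC, and SO1 had H3K4me1 at 2 of its 5 regions where the other conditions had it at all 5. The groups of 4 were chr20:36746589-36773300, chr9:97700163-97713567, chr11:86222609-86235126 and chr22:20869286-20881148. All 4 conditions had H3K4me1 at every region of the groups on chromosomes 20 and 9, and in the group on chromosome 11, 69352 bp or more from any H3K4me3 summit, TGFb had it at 2 and SO1 at 3. In the group on chromosome 22, TGFb and SO1 had it at 2 of the 4 regions, and H2030 and LCC at 3; this group, the sixth by size, was added after its values were seen.

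Common regions were found on every chromosome examined. Chromosome 1 held 373, chromosome 2 held 328 and chromosome 21 held 44. Their share of the LCC distal regions was 15.4% (12.1 to 19.3) on chromosome 13 and 18.4% (14.7 to 22.8) on X, and 28.2% (22.9 to 34.1) on chromosome 19 and 29.5% (22.8 to 37.3) on chromosome 21, around a median of 22.8% over the 23 chromosomes. The highest and lowest of these were picked after their values were seen, and the intervals of all but chromosomes 13, 19, 20 and 21 include the median. The share of common regions with H3K4me1 in all 4 conditions was between 67.5% on chromosome 10 and 83.7% on chromosome 14.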

How the data were processed

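Peak lists of 13 immunoprecipitated libraries were used; the 5 input libraries were not analysed here. The submitters' processing notes list Bowtie2, SAMtools and deepTools with the hg19 build, and the name of the peak caller is not given in the sources used here. The authors' deposited score per summit was read as a −log10 p-value or q-value, because its lowest values lie just above the −log10 of 0.05, 1.30103. Each list names 1 library, so peaks were called per library. Libraries were grouped by sample title.

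Summits off chromosomes 1 to 22 and X were dropped. An H3K4me1 summit within 1 kb marked a region, and the highest score within 1 kb was its level. Shares carry Wilson 95% intervals (SciPy 1.17.1, Python 3.11.15). The comparison sets were built from LCC replicate 1 summits by the same steps, and regions within 1 kb of a common region were left out of them. No test was run across samples. Regions were named by fixed rules: the 10 with the highest lowest percentile, those without H3K4me1 within 10 kb, the 3 losses and 3 gains of H3K4me1 per condition with the highest percentile, and the 5 largest groups. The members, lists and rules were chosen with earlier results of these data known, and the rank comparison was added after the data were seen. The membership step was tested on sites planted in the summit lists. The rank step was run on simulated scores, without a set limit for passing. Gene lists, cell type marker lists and motifs were planned for a genome and annotation of hg19 and were not used here.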

Additional observations from a re-analysis of the deposited data

How the results depend on the processing

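No paired analysis was possible because only LCC H3K27ac has replicates and the results come from no test. With H3K27ac summits required within 500 bp, there were 1982 common regions. Of the other LCC distal regions 27.7% had H3K4me1 in all 4 conditions, and 9.49% of the common regions had another within 12500 bp. The ranks then called 59 higher and 55 lower in TGFb, 65 and 74 in SO1 and 143 and 194 in H2030. These are counts out of 1982 regions, not 3332, so they fall with the size of the set. No share over other regions was computed at this setting. With no H3K4me3 within 5 kb, H3K4me1 was found at 78.0% of the common regions in all 4 conditions, 92.5% in TGFb, 89.4% in H2030 and 92.7% in LCC. With scores of at least 10, there were 1956 common regions, and the share with H3K4me1 in all 4 was 68.4%, against 15.3% of the other regions. Another common region lay within 12500 bp of 11.8%, and H3K4me1 was found at 88.6% in TGFb and 82.8% in H2030. Losses were 0.307% in TGFb and 2.86% in H2030, with no background computed at that score. H3K27ac lists of equal length gave 24.8% for the other regions. H3K4me1 within 500 bp gave 38.0% of the common and 11.9% of the other regions in all 4, with 70.7% in TGFb, 71.1% in SO1, 66.7% in H2030 and 72.2% in LCC. H3K4me1 within 2.5 kb gave 89.5% and 36.1%, with 97.6%, 96.2%, 94.4% and 97.1%. Joining within 5 or 25 kb placed 7.41% or 26.6% of the common regions beside another. Ranked together with regions near H3K4me3, with a limit of 28.5 points, 238 common regions were higher in TGFb and 511 in SO1, so 2 choices changed at once.

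Leaving out either LCC replicate gave 3561 to 4409 common regions, of which 72.9% to 75.2% had H3K4me1 in all 4 conditions, against 20.9% to 21.2% of the other regions, and 19.1% to 23.1% had another common region within 12500 bp. H3K4me1 then stood at 90.02% to 91.2% in TGFb, 90.3% to 91.5% in SO1, 86.3% to 88.0% in H2030 and 89.8% to 90.8% in LCC. The ranks called 197 to 221 higher and 167 to 238 lower in TGFb, 214 to 262 and 243 to 246 in SO1, and 398 to 427 and 427 to 442 in H2030. These counts are larger because 1 replicate, not 2, must be passed. They were made among the 3332 common regions alone, so they have no share over other regions beside them. The cause of the other changes was not tested. The value stayed within its interval, or within 1.5 times its count, in 102 repeats and moved beyond it in the 57 given here. The H3K4me1 rank differences kept their sign in 30 of 30, from 18.9 to 41.6 points where acetylation was higher and from -51.7 to -15.4 where it was lower. Regions started from H2030 summits have no counterpart of the other LCC regions, so that share was not run. The planned gene list and motif counts were not run. Read depth per library is unknown, so a missing summit may be a missed peak.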

Other observations

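The common regions farthest from H3K4me3 were looked up after the data were seen. At chr2:49475634 the nearest H3K4me3 summit of any condition lay 528693 bp away, and H3K27ac scored 40.7 in TGFb, 73.7 in SO1 and 9.26 in H2030, against 4.86 and 17.2 in LCC. At chr5:88716447-88717211 it lay 509389 bp away. On chromosome 3, chr3:109646734 and chr3:109404643 lay 492550 and 485568 bp from H3K4me3. The first of these scored 312 in TGFb, 393 in SO1 and 109 in H2030, and 22.1 and 97.3 in LCC. Within their own lists these H3K27ac scores stood at percentiles 95.3, 98.0 and 77.6, and at 65.1 and 86.4 in LCC. Its H3K4me1 scored 60.1, 79.2 and 40.6 in TGFb, SO1 and H2030 and 48.9 in LCC. At chr8:140228024, 488630 bp from H3K4me3, H3K27ac scored 270 in TGFb, 366 in SO1 and 22.8 in H2030, and 68.7 and 97.5 in LCC. By percentile within their own lists these stood at 92.9, 97.3 and 56.7, and at 88.8 and 86.5 in LCC. All 5 regions carried H3K4me1 in all 4 conditions.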
